A study of Mus musculus with 6 samples.

Results

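Proteases that act outside cells or at their surface, and the tissue inhibitors of metalloproteinases (TIMPs), were followed in lacrimal glands (LGs) of T2DM and vehicle mice. The genes were chosen by name: matrix metalloproteinases (Mmp), ADAMs other than Adam10, ADAMTS and ADAMTS-like genes, TIMPs, the Tmprss, Prss and Klk serine proteases, Plat, Plau and Plaur, St14, Furin and the Pcsk convertases. This gave 47 of the 12491 genes in the deposited table. The RNA-seq covered 3 T2DM and 3 vehicle libraries of LG from C57BL/6 mice, which were all male by the methods of the study. T2DM mice ate a high-fat diet before and after intraperitoneal streptozotocin (STZ), a drug that destroys insulin-producing cells, and vehicle mice were kept on a normal diet with citrate buffer alone. The labels give an age of 24 weeks for all samples, whereas the methods count 24 weeks from STZ. Diet, STZ and their timing therefore differ together between the groups. Whether glands were pooled into a library is stated in neither source, and p-values then measure only the spread between these libraries, which may be technical.

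Metalloproteinases cut the extracellular matrix and shed proteins from cell surfaces, and TIMPs bind their active site. Membrane-anchored trypsin-like proteases such as matriptase and prostasin work in epithelia, where they cleave receptors, channels and other zymogens. Both kinds are made as inactive precursors, and furin-like convertases in the secretory pathway activate several of them. In the LG, an exocrine gland that makes the watery part of tears, proteases of the stroma, of acini and ducts and of immune cells are mixed in whole-gland RNA. In such RNA, fewer cells of a type and less RNA per cell cannot be told apart.

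The values are FPKM (fragments scaled to exon length and to the mapped fragments of the library), which hold no read numbers, so the depth is unknown. Of the 47 genes, 44 reached a group mean of 0.5 FPKM or more and were tested, and Adamtsl5, Klk1b24 and Prss16 were not. The test was limma on log2(FPKM + 1) over 12135 genes with Benjamini-Hochberg adjustment, and a gene is called higher or lower at an adjusted p under 0.05. On this scale the fold change of a low gene is understated. Over the 12135 genes the median log2 fold change was 0.16 on the deposited scale and 0.02 with median of ratios scaling, so each fold change is to be read against that shift. Exons of 17 of the 47 genes overlap another gene, and their values are uncertain by the reads of that gene. The acinar gene Obp1a lay between 62649 and 78388 FPKM in all 6 libraries. Vehicle replicate 1 stood apart in salivary gland genes, and the sum of 7 salivary markers in the table was 2300 FPKM there and between 11.8 and 21.1 FPKM in the other 5 libraries. Egf, at 7.82 to 13.6 FPKM, made up much of the sum in those 5. Amy1, Bpifa2 and Smr3a were also lower in every T2DM library than in vehicle replicates 2 and 3. Egf was higher in every T2DM library than in those 2 libraries, and Dcpp1, Dcpp2 and Dcpp3 overlapped with them. Over the 12135 genes, vehicle replicate 1 was the lowest of the 3 vehicle libraries for 3634 (29.9%), no more than an even share.

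The proximal promoters of some of these genes are shown first, for 3 genes that rose and for 3 secreted metalloproteinases known as inducible genes, which did not pass the test. The 110 bases before the RefSeq start are given on GRCm38.p6, 5′ to 3′, with matches in capitals to motifs searched on both strands. These were the GC box (GGGCGG), the AP-1 site (TGANTCA) and the TATA box (TATAAA), and the E-box (CACGTG) had no match in these windows. Timp3, Timp2 and Mmp15 rose in T2DM LGs. Mmp3, Mmp7 and Mmp13 did not pass.
Timp3: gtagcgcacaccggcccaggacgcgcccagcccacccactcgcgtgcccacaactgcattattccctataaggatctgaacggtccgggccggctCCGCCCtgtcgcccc
Timp2: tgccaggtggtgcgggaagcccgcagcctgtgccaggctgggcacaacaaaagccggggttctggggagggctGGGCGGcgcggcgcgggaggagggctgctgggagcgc
Mmp15: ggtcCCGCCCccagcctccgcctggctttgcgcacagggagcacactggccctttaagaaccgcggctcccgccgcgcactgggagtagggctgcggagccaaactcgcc
Mmp3: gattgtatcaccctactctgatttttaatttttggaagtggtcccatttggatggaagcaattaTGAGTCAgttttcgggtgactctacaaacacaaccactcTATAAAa
Mmp7: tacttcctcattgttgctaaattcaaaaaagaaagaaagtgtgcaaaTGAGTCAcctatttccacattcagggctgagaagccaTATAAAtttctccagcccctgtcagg
Mmp13: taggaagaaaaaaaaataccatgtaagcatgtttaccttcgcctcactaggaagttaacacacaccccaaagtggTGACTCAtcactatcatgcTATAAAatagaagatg

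These windows lie at chr10:86300302-86300411 on the plus strand for Timp3, at chr11:118355412-118355521 on the minus strand for Timp2 and at chr8:95352186-95352295 on the plus strand for Mmp15. Those of Mmp3, Mmp7 and Mmp13 lie on the plus strand at chr9:7445712-7445821, chr9:7691980-7692089 and chr9:7272404-7272513. The RefSeq start of Timp2 lies 329 bases from the start of the gene in the deposited table, those of Timp3 and Mmp15 lie 40 and 28 bases from it, and those of the other 3 coincide with it. Among 27025 promoters of the same length, a GC box match was present in 25.8%, an AP-1 match in 3.1% and a TATA match in 6.36%. The 3 promoters of genes that rose each had 1 GC box match and no match to the other motifs, and the 3 others each had 1 AP-1 and 1 TATA match and no GC box match. Other genes of the set broke this contrast, as Prss33 and Tmprss2 rose and had no GC box match, whereas Timp1 and Mmp14 did not pass and had 1 and 2. A match is only a string of letters in this window, and the 6 genes were picked after their values were seen. RefSeq promoters were matched for 31 of the 47 genes, St14 not among them.

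**Figure D1:**
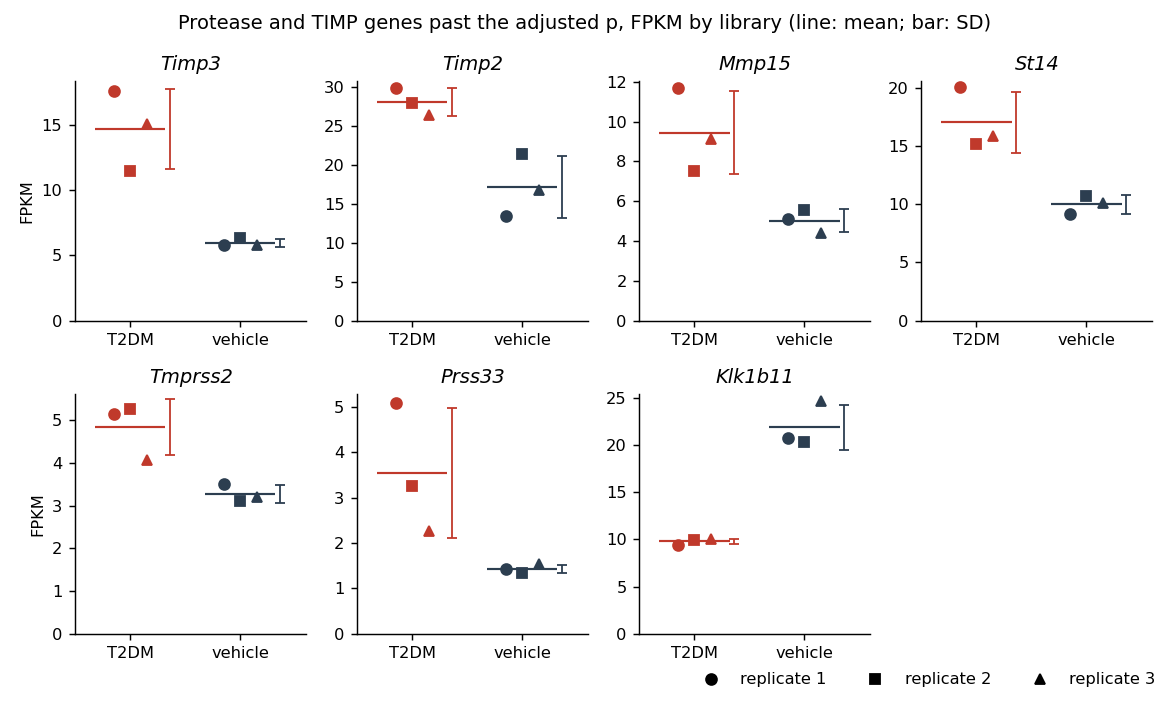
FPKM (y axis, from 0) of the 7 genes past the adjusted p in 3 T2DM and 3 vehicle libraries, with each replicate as a point, the mean as a line and the SD as a bar. All T2DM points lie above all vehicle points for 6 genes and below them for Klk1b11.

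Of the 44 tested genes, 6 were higher and 1 was lower in T2DM LGs. The higher genes were Timp3, Timp2, Mmp15, St14, Tmprss2 and Prss33, and the lower gene was Klk1b11. These are 13.6% and 2.27% of the tested genes, whereas 10.5% of all genes tested were higher and 1.7% were lower. The share called, 15.9% against 12.2% of all genes, is thus close to the background. The median log2 fold change of the 44 genes was 0.02, below the 0.16 of all genes. The calls fell in 5 of the 10 families. A positive fold change was found in 24 of the 44 genes and a negative one in 20, against 9080 and 3055 of the 12135 genes. At an unadjusted p under 0.05, 8 were higher and 4 lower, where 28.5% and 4.57% of all genes were. All T2DM libraries were above all vehicle libraries in 9 genes (20.5%) and below them in 4 (9.09%), against 33.8% and 6.1% of all genes. Of the 9, Adamtsl1, Mmp13 and Prss41 reached the filter of 0.5 FPKM only through their T2DM mean. Their separation is therefore no evidence of a rise. Calls depended on single libraries. Of the 6 rises, 0 passed without vehicle replicate 3, and 2 passed if replicate 1 or 2 of the vehicle group was left out. Without T2DM replicate 1, 2 or 3 the number was 2, 3 or 5. The loss was not particular to these genes. Over all genes the higher calls fell from 1271 to 25 without vehicle replicate 3, and to 464 or 203 without vehicle replicate 1 or 2. They numbered 260, 760 or 886 without T2DM replicate 1, 2 or 3. Median of ratios scaling left 3 of the rises, Mmp15, St14 and Timp3, and split the calls over all genes into 498 higher and 431 lower, where the deposited scale gave 1271 and 206.

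**Figure D2:**
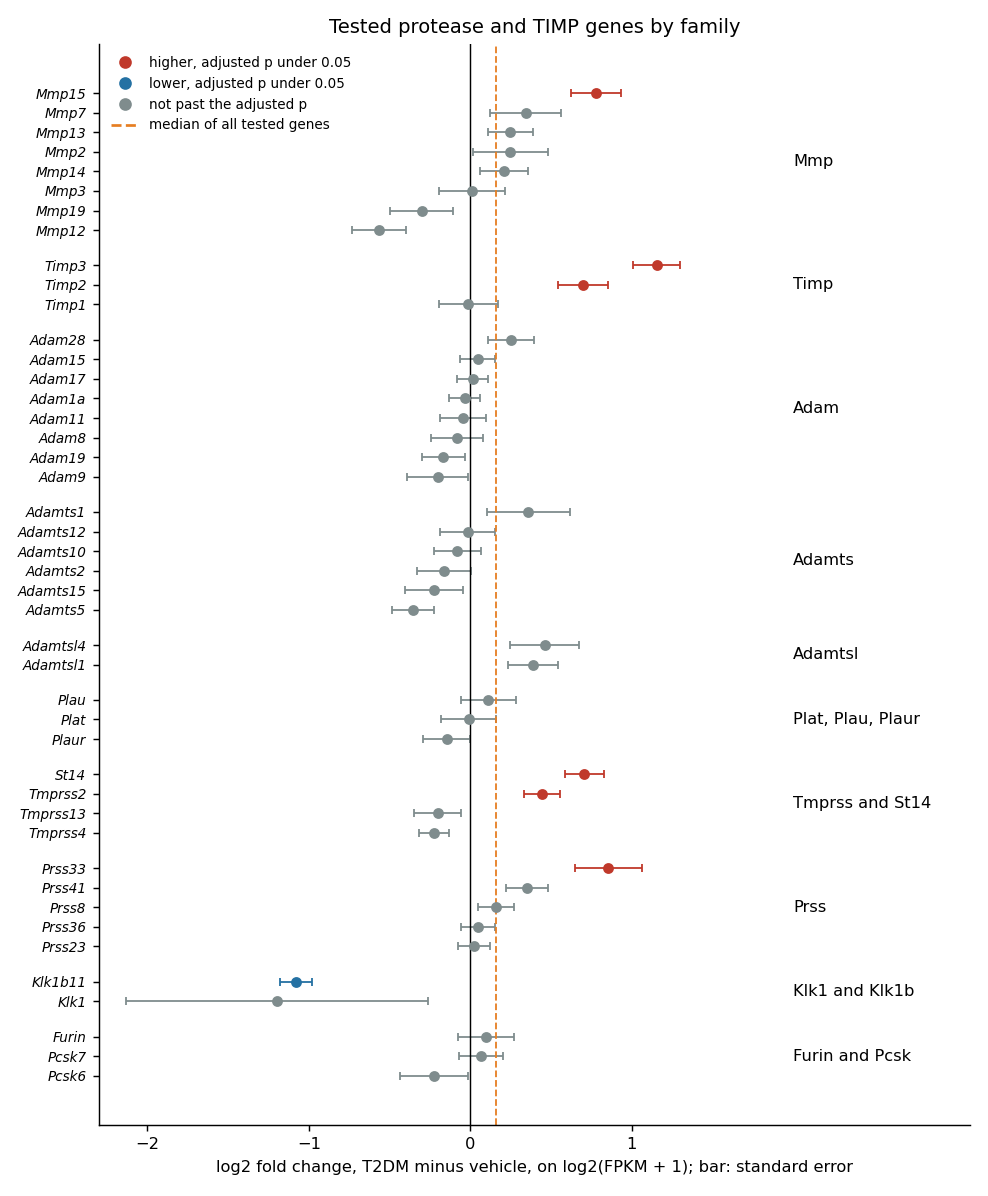
Log2 fold change, T2DM minus vehicle, on log2(FPKM + 1) (x axis) of the 44 tested genes by family, with the standard error as a bar. Red and blue points are the 6 genes called higher and the 1 called lower, and the dashed line is the median of all tested genes at 0.16.

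Of 3 TIMPs, 2 rose on the deposited scale, 1 rose with median of ratios scaling and 0 without vehicle replicate 3. Without that library only 25 of all genes were called higher. Timp3, a TIMP held in the extracellular matrix that inhibits metalloproteinases including ADAM17, had 17.6, 11.5 and 15.1 FPKM in T2DM LGs, against 5.81, 6.31 and 5.77 FPKM in vehicle LGs. Every T2DM library was thus above the narrow range of the vehicle libraries. The means were 14.7 ± 3.1 FPKM in T2DM and 5.96 ± 0.30 FPKM in vehicle LGs (SD, n = 3 each), with a log2 fold change of 1.16 ± 0.15 (standard error; limma, adjusted p = 0.0123). Timp3 kept its call when any library other than vehicle replicate 3 was left out, and its adjusted p without that library was 0.0553. The gene (ENSMUSG00000020044.13, chr10:86300372-86349506, plus strand, GRCm38) has exons that overlap Syn3 on the opposite strand. The library kit kept the strand, but whether the counting used it is not given in the sources used here.

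Timp2, which inhibits metalloproteinases and also helps membrane-type enzymes activate pro-MMP2, had 29.9, 28.0 and 26.4 FPKM in T2DM LGs, against 13.4, 21.4 and 16.8 FPKM in vehicle LGs. The T2DM libraries were close to each other, whereas vehicle replicate 1 was the lowest. Its log2 fold change was 0.70 ± 0.16 (standard error; limma, adjusted p = 0.0336). The call was lost when any single library other than vehicle replicate 2 was left out, with an adjusted p of up to 0.102, and likewise with median of ratios scaling (limma, adjusted p = 0.0850). The gene is ENSMUSG00000017466.9 at chr11:118301069-118355740 on the minus strand.

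Timp1, the TIMP most known for its induction in inflamed tissue, had 2.96, 1.97 and 3.58 FPKM in T2DM LGs, against 2.21, 3.22 and 3.09 FPKM in vehicle LGs. The groups overlapped, and the 95% confidence interval of its log2 fold change by limma was -0.43 to 0.41. Ratios to Timp1 were taken within single libraries, where scaling plays no part. The ratio of Timp3 to Timp1 FPKM was 5.93, 5.83 and 4.21 in T2DM LGs, against 2.63, 1.96 and 1.87 in vehicle LGs. The ratio of Timp2 to Timp1 was 10.1, 14.2 and 7.39 in T2DM LGs, against 6.08, 6.64 and 5.45 in vehicle LGs. Neither ratio overlapped between the groups. In these and the later ratios between 2 genes, the first gene was one called higher on the same values. Their separation is therefore no further evidence, and how often other pairs of genes separate was not counted.

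**Figure D3:**
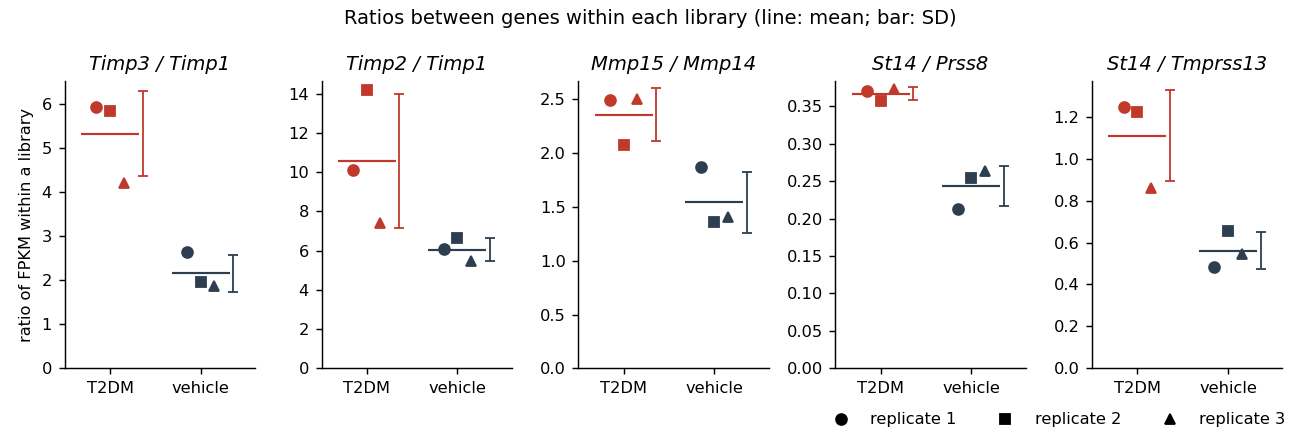
Ratios of FPKM between 2 genes of the same library (y axis, from 0) in 3 T2DM and 3 vehicle libraries, with the mean as a line and the SD as a bar. All 5 ratios were higher in every T2DM library than in any vehicle library, for example 0.356 to 0.373 against 0.213 to 0.263 for St14 to Prss8. The first gene of each pair was one called higher on the same values. The ratio of St14 to Spint1, not shown, overlapped.

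Of 8 tested matrix metalloproteinases, 1 rose and 7 did not pass. Mmp15, a membrane-type metalloproteinase (MT2-MMP), had 11.7, 7.54 and 9.11 FPKM in T2DM LGs, against 5.11, 5.57 and 4.41 FPKM in vehicle LGs. The groups did not overlap, and T2DM replicate 1 was the highest. Its log2 fold change was 0.78 ± 0.16 (standard error; limma, adjusted p = 0.0272), and the call was lost without any 1 of the vehicle libraries or T2DM replicate 1, with an adjusted p of up to 0.0913. Mmp15 (ENSMUSG00000031790.8) lies at chr8:95352268-95375080 on the plus strand. The related membrane-type enzyme Mmp14 (MT1-MMP) had 4.68, 3.63 and 3.64 FPKM in T2DM LGs, against 2.73, 4.11 and 3.14 FPKM in vehicle LGs. These overlapped, and the ratio of Mmp15 to Mmp14 was 2.50, 2.08 and 2.50 in T2DM LGs, against 1.87, 1.36 and 1.41 in vehicle LGs.

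The most abundant Mmp gene was Mmp3 (stromelysin-1), which cuts many matrix proteins and activates other pro-MMPs. It had 21.6, 26.5 and 27.7 FPKM in T2DM LGs, against 17.6, 31.1 and 28.2 FPKM in vehicle LGs. The vehicle libraries spanned a wider range than the T2DM libraries, and the 95% confidence interval of its log2 fold change by limma was -0.46 to 0.49. Of its 50-base windows 8.39% also occurred in other genes, nearly all in Mmp10, so some of its reads may be shared. Mmp2 (gelatinase A), a stromal enzyme, had 8.74, 8.73 and 12.8 FPKM in T2DM LGs, against 5.52, 10.3 and 9.61 FPKM in vehicle LGs, with a log2 fold change of 0.25 (95% confidence interval -0.29 to 0.79).

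Mmp12, the elastase of macrophages, stood nearest to the threshold among the genes that did not pass. It had 0.697, 0.649 and 1.13 FPKM in T2DM LGs, against 1.17, 2.00 and 1.97 FPKM in vehicle LGs. The groups did not overlap, though T2DM replicate 3 and vehicle replicate 1 nearly met. The log2 fold change was -0.57 ± 0.17 (standard error; limma, adjusted p = 0.0627), and with vehicle replicate 1 left out Mmp12 was called lower. Of 7 rows for macrophage and monocyte markers, 1, Cd14, was higher and none was lower by limma (adjusted p under 0.05). Their sum was 214.4, 237.9 and 251.8 FPKM in T2DM LGs, against 158.1, 340.0 and 286.4 FPKM in vehicle LGs, so vehicle replicate 1 was the lowest of the vehicle libraries in both. The part of these cells in the level of Mmp12 was not tested. Mmp7, Mmp13 and Mmp19 had means between 0.272 and 2.75 FPKM in the 2 groups and did not pass. Mmp13 (collagenase-3) had 0.794, 0.368 and 0.399 FPKM in T2DM LGs, against 0.339, 0.315 and 0.163 FPKM in vehicle LGs, without overlap. Mmp7 (matrilysin) had 0.290, 0.744 and 1.19 FPKM in T2DM LGs, against 0.185, 0.201 and 0.695 FPKM in vehicle LGs, with overlap. The ratio of T2DM to vehicle means was 2.05 for Mmp7 and 1.91 for Mmp13, above the 1.88 of Mmp15, but at levels near or under 1 FPKM. Both genes reached the filter of 0.5 FPKM only through their T2DM means of 0.741 and 0.520 FPKM. Their ratios, and the separation of Mmp13, are therefore no evidence of a rise.

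A low level in vehicle replicate 1 was shared by most of the Mmp and plasminogen activator genes. Of the 11 tested Mmp, Plat, Plau and Plaur genes, 9 were lowest of the vehicle libraries in replicate 1, the exceptions being Mmp15 and Mmp13, and 6 were lowest there of all 6 libraries. Of all 44 tested genes, 25 were lowest of the vehicle libraries in replicate 1 (56.8%, against 29.9% of all genes). Lowest there of all 6 libraries were 16 of the 44 (36.4%, against 22.4% of all genes). The median level of the 11 genes, as the difference of log2(FPKM + 1) from the mean of the 6 libraries, was -0.14, 0.01 and 0.08 in T2DM LGs and -0.34, 0.25 and 0.11 in vehicle LGs. The 7 fibroblast markers moved the same way, with medians of -0.09, -0.08 and 0.21 in T2DM LGs and -0.52, 0.22 and 0.18 in vehicle LGs, and all 7 were lowest of the vehicle libraries in replicate 1. Summed FPKM of these markers were 85.2, 92.9 and 105.3 in T2DM LGs, against 63.5, 108.5 and 112.3 in vehicle LGs, and none of the 7 passed the test. This trait was not particular to fibroblast markers. Replicate 1 was the lowest vehicle library for 6 of 7 macrophage and monocyte, 5 of 7 endothelial and 3 of 3 pericyte markers. It was so for 4 of 5 mast cell, 4 of 5 neutrophil and 3 of 4 myoepithelial and smooth muscle markers. For duct and acinar markers the numbers were 6 of 13 and 2 of 8. For B cell, T cell and plasma cell markers they were 2 of 4, 1 of 3 and 0 of 4. The part of fibroblasts or of any other cell type in these protease levels was not tested.

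**Figure D4:**
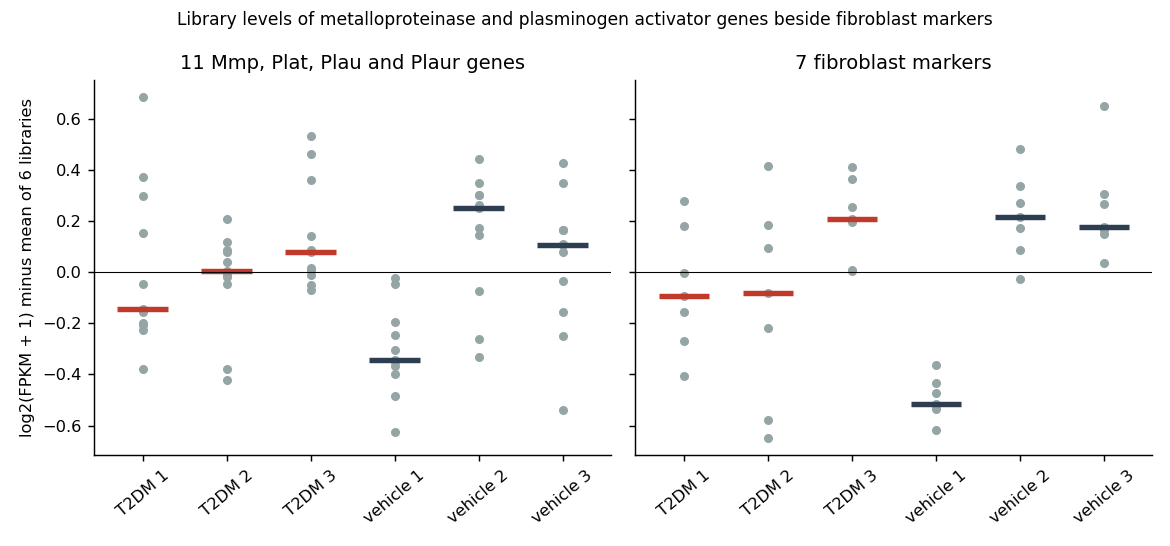
Difference of log2(FPKM + 1) from the mean of 6 libraries (y axis) for 11 Mmp, Plat, Plau and Plaur genes and for 7 fibroblast markers in each library (x axis), with a point per gene and the median as a bar. Vehicle replicate 1 has the lowest median in both panels, at -0.34 and -0.52.

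The plasminogen activators did not pass. Plau, the urokinase that turns plasminogen into plasmin, had 6.06, 5.73 and 5.04 FPKM in T2DM LGs, against 3.81, 6.63 and 5.19 FPKM in vehicle LGs. Its receptor Plaur and the tissue-type activator Plat had means under 1 FPKM in both groups. The groups overlapped for each of them, and vehicle replicate 1 was the lowest vehicle library for all 3 genes.

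Among ADAMs, which shed cytokines, growth factors and receptors from the cell surface, 0 of 8 tested genes passed, also at an unadjusted p under 0.05 by limma. None passed the unmoderated linear model either, which called 0 of all genes. Adam9 was the most abundant, at 28.7, 17.2 and 28.4 FPKM in T2DM LGs, against 25.6, 29.6 and 28.8 FPKM in vehicle LGs, so that only T2DM replicate 2 stood below the others. Adam15 had 8.13, 8.28 and 8.33 FPKM in T2DM LGs, against 7.02, 9.19 and 7.79 FPKM in vehicle LGs. Adam17, the sheddase of TNF and of EGF receptor ligands, had 4.16, 4.14 and 4.32 FPKM in T2DM LGs, against 3.73, 4.46 and 4.30 FPKM in vehicle LGs. The 6 values lay close together, and the 95% confidence interval of its log2 fold change was -0.21 to 0.24. The ratio of its inhibitor Timp3 to Adam17 was 4.22, 2.77 and 3.48 in T2DM LGs, against 1.56, 1.41 and 1.34 in vehicle LGs, without overlap.

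Adam28, known from lymphocytes and epithelia, had the smallest p of the ADAMs. It had 4.10, 3.73 and 2.64 FPKM in T2DM LGs, against 2.92, 2.44 and 2.82 FPKM in vehicle LGs, and T2DM replicate 3 lay within the vehicle range (log2 fold change 0.26, adjusted p = 0.248 from limma). Adam1a, a gene known from sperm, shared all of its 50-base windows with other genes, and its mean of 0.787 FPKM in T2DM and 0.831 FPKM in vehicle LGs is uncertain.

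Of 6 ADAMTS genes, which cut proteoglycans and procollagens, none passed the adjusted p. A negative fold change was found in 5 of the 6, against 3055 of all 12135 tested genes. Adamts5, an aggrecanase, had 1.15, 1.34 and 1.51 FPKM in T2DM LGs, against 1.595, 2.42 and 1.97 FPKM in vehicle LGs. The groups did not overlap but lay close together, and its log2 fold change of -0.35 had an adjusted p of 0.109 from limma. Adamts15 had 1.67, 2.18 and 2.30 FPKM in T2DM LGs, against 3.57, 2.43 and 1.85 FPKM in vehicle LGs, and Adamts10, which is tied to fibrillin, had 2.01, 1.11 and 1.69 FPKM in T2DM LGs, against 1.79, 1.87 and 1.52 FPKM in vehicle LGs. Both overlapped widely. The ADAMTS-like genes carry no protease domain. Adamtsl1 had 1.03, 0.354 and 0.671 FPKM in T2DM LGs, against 0.230, 0.250 and 0.331 FPKM in vehicle LGs, and did not pass (adjusted p = 0.130 from limma). Its mean reached the filter in T2DM LGs alone (0.684 against 0.270 FPKM in vehicle LGs). Adamtsl4 had 2.05, 0.984 and 0.795 FPKM in T2DM LGs, against 0.549, 0.899 and 0.414 FPKM in vehicle LGs, with T2DM replicate 1 far above the rest.

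Transmembrane serine proteases divided: 2 of 4 rose and 2 had lower means that did not pass. St14 encodes matriptase, an epithelial protease that activates prostasin, pro-HGF and the receptor PAR2. It had 20.0, 15.2 and 15.9 FPKM in T2DM LGs, against 9.15, 10.7 and 10.1 FPKM in vehicle LGs. The 2 groups were well apart, and St14 had a log2 fold change of 0.71 ± 0.12 (standard error; limma, adjusted p = 0.0210). The adjusted p rose to 0.0713 at most when 1 library was left out, and the call was lost without vehicle replicate 2 or 3. St14 (ENSMUSG00000031995.9) lies at chr9:31089402-31131853 on the minus strand.

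Tmprss2, a transmembrane protease of glandular epithelia, had 5.16, 5.27 and 4.08 FPKM in T2DM LGs, against 3.50, 3.12 and 3.20 FPKM in vehicle LGs. The vehicle libraries were tightly grouped and T2DM replicate 3 came nearest to them. Its log2 fold change was 0.44 ± 0.11 (standard error; limma, adjusted p = 0.0448), with 1 library left out the call held only without T2DM replicate 3, and the median of ratios scaling gave an adjusted p of 0.117 from limma. Tmprss2 (ENSMUSG00000000385.7) lies at chr16:97564684-97611195 on the minus strand in the table, and GENCODE M21 gives slightly different ends.

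Tmprss13 had the highest mean FPKM of this family over the 6 libraries. It had 16.1, 12.4 and 18.5 FPKM in T2DM LGs, against 19.0, 16.3 and 18.7 FPKM in vehicle LGs. The groups overlapped, and the ratio of St14 to Tmprss13 was 1.25, 1.22 and 0.859 in T2DM LGs, against 0.482, 0.656 and 0.543 in vehicle LGs, so that matriptase transcripts exceeded those of Tmprss13 in 2 T2DM libraries and in no vehicle library. Tmprss4 had 5.08, 4.93 and 5.55 FPKM in T2DM LGs, against 6.06, 5.88 and 6.76 FPKM in vehicle LGs, all T2DM libraries being below all vehicle libraries (log2 fold change -0.23, adjusted p = 0.146 from limma).

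Of 5 tested Prss genes, 1 rose. Prss33, a trypsin-like protease, had 5.09, 3.26 and 2.27 FPKM in T2DM LGs, against 1.42, 1.34 and 1.53 FPKM in vehicle LGs. The T2DM libraries were spread over a wide range, all of it above the vehicle libraries. The log2 fold change was 0.85 ± 0.21 (standard error; limma, adjusted p = 0.0402), with 1 library left out the call held only without T2DM replicate 3, and the median of ratios scaling gave an adjusted p of 0.0624 from limma. Prss33 (ENSMUSG00000049620.8) lies at chr17:23833360-23836056 on the minus strand in the table, and here too the ends in GENCODE M21 differ slightly.

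Prss8 encodes prostasin, a membrane-anchored protease that works with matriptase and activates the epithelial sodium channel, and it was the most abundant of the 47 genes. It had 54.1, 42.6 and 42.6 FPKM in T2DM LGs, against 42.9, 42.2 and 38.6 FPKM in vehicle LGs. Only T2DM replicate 1 stood out, and the log2 fold change of 0.16 (95% confidence interval -0.10 to 0.42) equals the median of all genes. The ratio of St14 to Prss8 was 0.370, 0.356 and 0.373 in T2DM LGs, against 0.213, 0.253 and 0.263 in vehicle LGs, so the ratio was higher in every T2DM library than in any vehicle library. Prss8 overlaps Kat8 on the opposite strand. Prss23 had 7.35, 7.47 and 7.43 FPKM in T2DM LGs, against 6.43, 8.07 and 7.42 FPKM in vehicle LGs. Prss36, a protease with several catalytic domains, had a log2 fold change of 0.05 and did not pass. Prss41, known from testis, was under 1 FPKM in all libraries and higher in all T2DM than in all vehicle libraries, with an adjusted p of 0.113 from limma. It was tested only because its T2DM mean reached the filter (0.533 against 0.193 FPKM in vehicle LGs), so this separation is no evidence of a rise.

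Kallikreins of the Klk1 group, which are abundant in rodent salivary glands, held the 1 fall that passed. Klk1b11, one of the mouse genes duplicated from Klk1, had 9.44, 9.91 and 10.02 FPKM in T2DM LGs, against 20.8, 20.3 and 24.6 FPKM in vehicle LGs. Both groups were tight and far apart. The means were 9.79 ± 0.31 FPKM in T2DM and 21.9 ± 2.4 FPKM in vehicle LGs (SD, n = 3 each), with a log2 fold change of -1.08 ± 0.10 (standard error; limma, adjusted p = 0.00448). It was called lower whichever library was left out, with an adjusted p between 0.00783 and 0.0185, and under both other scalings. By the unmoderated linear model its adjusted p was 0.0820. Of the 50-base windows of its transcript 12.8% also occurred in other genes, most often in Klk1, so part of its reads may be shared within the family. Klk1b11 (ENSMUSG00000044485.4) lies at chr7:43995877-43999875 on the plus strand.

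Klk1, the tissue kallikrein that releases kinins, was at 15.1 FPKM in vehicle replicate 1 and under 0.5 FPKM in the other 5 libraries, at 0.461 and 0.115 FPKM in T2DM replicates 1 and 2, listed at 0 in T2DM replicate 3. Vehicle replicates 2 and 3 had 0.0999 and 0.112 FPKM. Of the 7 salivary markers, 6 were likewise highest in vehicle replicate 1, and Egf was not, with 10.8 FPKM there and 7.82 to 13.6 FPKM in the other libraries. Bpifa2, for example, was at 1.17 FPKM in T2DM replicate 1, listed at 0 in T2DM replicates 2 and 3, and at 1127, 4.38 and 2.03 FPKM in vehicle LGs. The part of salivary tissue in the level of Klk1 was not tested. Klk1b11 was not raised in vehicle replicate 1, which lay between the other 2 vehicle libraries. Some salivary markers differed between the groups without that library too. Smr3a was listed at 0 in every T2DM library, and had 4.57 and 2.54 FPKM in vehicle replicates 2 and 3. The part of salivary tissue in the level of Klk1b11 was not tested either. Klk1b24 was under 0.5 FPKM in every library.

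**Figure D5:**
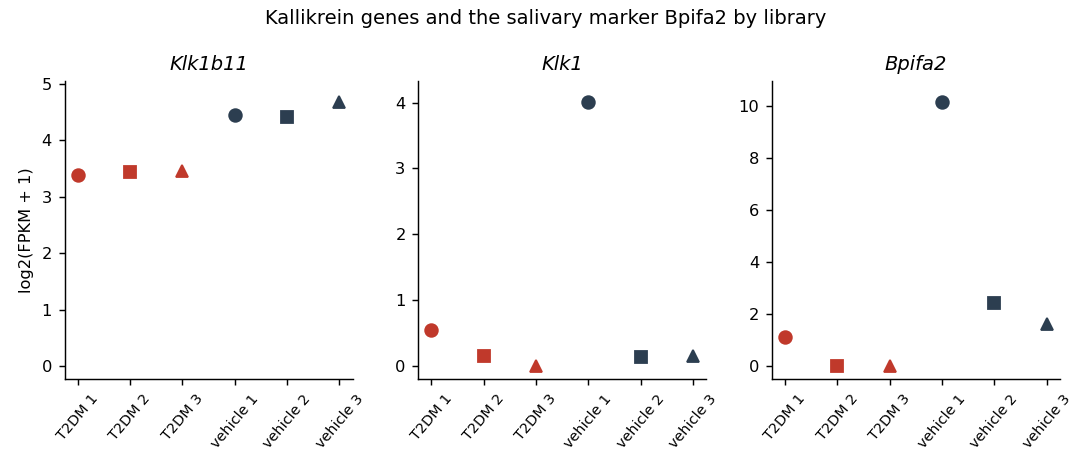
log2(FPKM + 1) of Klk1b11, Klk1 and the salivary gland gene Bpifa2 (y axes) in each library (x axis), T2DM in red and vehicle in dark blue. Klk1 and Bpifa2 are high in vehicle replicate 1 alone, at 15.1 and 1127 FPKM, and Klk1b11 is lower in all T2DM libraries.

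The proprotein convertases, which cut precursors after basic residues, did not pass. Furin had 31.8, 20.0 and 24.2 FPKM in T2DM LGs, against 27.3, 22.2 and 20.5 FPKM in vehicle LGs. Pcsk7 had 3.08, 2.15 and 3.39 FPKM in T2DM LGs, against 2.77, 2.50 and 2.71 FPKM in vehicle LGs. In both genes the T2DM range took in the whole vehicle range. Pcsk6 was under 1 FPKM in all libraries, with an adjusted p of 0.475 from limma.

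Genes that act with these proteases were counted in the same way. Of 70 genes in a list of inhibitors, cofactors, other surface proteases, receptors and substrates, 46 were tested, 14 were higher (30.4%, against 10.5% of all genes) and none was lower, and their median log2 fold change was 0.42, against 0.16 for all genes. At an unadjusted p under 0.05 by limma, 26 were higher and 0 were lower. The list was put together with results of these data known, so its share is no independent evidence. Of the 14 rises, 10 or fewer passed when 1 library was left out, 0 without vehicle replicate 3, and 7 passed with median of ratios scaling. Over all genes, 25 were called higher without vehicle replicate 3 and 498 with median of ratios scaling. The calls of Anpep, Hgf and Reck were lost whichever library was left out, and that of F2rl1 was lost only without vehicle replicate 3.

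Of 5 receptors and substrates of serine proteases, 3 were higher. F2rl1 encodes PAR2, a receptor that matriptase and trypsin-like proteases activate by cleavage. It had 7.61, 5.95 and 4.35 FPKM in T2DM LGs, against 1.94, 1.80 and 2.14 FPKM in vehicle LGs. The lowest T2DM library was thus more than 2 FPKM above the highest vehicle library (log2 fold change 1.21 ± 0.17, standard error; limma, adjusted p = 0.0153). The thrombin receptor F2r (PAR1) had 8.36, 7.11 and 4.92 FPKM in T2DM LGs, against 2.32, 2.94 and 3.06 FPKM in vehicle LGs. Hgf, a growth factor that matriptase can activate, had 2.43, 1.86 and 1.82 FPKM in T2DM LGs, against 1.13, 1.02 and 1.25 FPKM in vehicle LGs. Its receptor Met had 6.32, 5.02 and 10.9 FPKM in T2DM LGs, against 4.80, 3.81 and 3.25 FPKM in vehicle LGs, and did not pass (adjusted p = 0.0912 from limma).

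Of 12 tested inhibitors and cofactors of serine proteases, 3 were higher, namely Serpine2, which inhibits thrombin and urokinase, the epithelial serpin Serpinb5, and Anxa2, a plasminogen-binding annexin. Serpine2 averaged 3.38 ± 1.49 FPKM in T2DM and 1.18 ± 0.16 FPKM in vehicle LGs, Serpinb5 averaged 2.31 ± 0.42 FPKM in T2DM and 1.36 ± 0.12 FPKM in vehicle LGs, and Anxa2 averaged 28.8 ± 6.9 FPKM in T2DM and 16.9 ± 2.5 FPKM in vehicle LGs (SD, n = 3 each). The membrane inhibitors of matriptase did not pass. Spint1 (HAI-1) had 11.6, 10.7 and 9.82 FPKM in T2DM LGs, against 8.62, 5.62 and 7.72 FPKM in vehicle LGs (adjusted p = 0.0613 from limma). Spint2 (HAI-2) had 95.6, 80.5 and 83.7 FPKM in T2DM LGs, against 80.7, 70.9 and 66.3 FPKM in vehicle LGs. The ratio of St14 to Spint2 was 0.210, 0.189 and 0.190 in T2DM LGs, against 0.113, 0.151 and 0.153 in vehicle LGs, whereas the ratio to Spint1 overlapped.

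Of 9 regulators of metalloproteinases, 2 were higher. Reck, a membrane-anchored inhibitor of several MMPs, had 2.63, 1.74 and 1.66 FPKM in T2DM LGs, against 0.9995, 1.21 and 1.01 FPKM in vehicle LGs, with an adjusted p of 0.0498 from limma that just passed. Tspan15, a tetraspanin partner of ADAM proteases, averaged 6.42 ± 0.85 FPKM in T2DM and 3.85 ± 0.69 FPKM in vehicle LGs (SD, n = 3 each). Of 20 tested other surface and extracellular proteases, 6 were higher. Enpep, the aminopeptidase that trims angiotensin II, had 68.9, 43.0 and 29.4 FPKM in T2DM LGs, against 18.1, 16.0 and 19.3 FPKM in vehicle LGs. Ece1, which matures endothelins, had 34.7, 18.2 and 18.4 FPKM in T2DM LGs, against 9.74, 8.07 and 8.67 FPKM in vehicle LGs, and Mme (neprilysin) had 12.2, 6.89 and 5.34 FPKM in T2DM LGs, against 3.37, 2.83 and 3.13 FPKM in vehicle LGs. In these 3 peptidases T2DM replicate 1 was highest and every T2DM library was above the vehicle range. Anpep (aminopeptidase N) averaged 68.4 ± 13.3 FPKM in T2DM and 44.0 ± 6.6 FPKM in vehicle LGs, the carboxypeptidase Cpe averaged 20.0 ± 4.0 FPKM in T2DM and 10.7 ± 2.2 FPKM in vehicle LGs, and Adamdec1, an ADAM-like protease of macrophages, averaged 2.16 ± 0.59 FPKM in T2DM and 0.694 ± 0.254 FPKM in vehicle LGs (SD, n = 3 each).

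Markers of some cell types were also called higher, as were 10.5% of all tested genes. Of 13 duct markers, 8 were called higher and 0 lower by limma, 12 lay higher in all T2DM than in all vehicle libraries (33.8% of all tested genes did so), and their summed FPKM was 1365, 1160 and 1062 in T2DM LGs, against 789.0, 756.6 and 823.6 in vehicle LGs. T2DM replicate 1 was the highest T2DM library for 12 of the 13 duct markers and for 5 of the 6 protease and TIMP genes that rose (83.3%). The share of these 6 genes was close to that of all genes called higher, at 1012 of 1271 (79.6%). Of 4 myoepithelial and smooth muscle markers 3 were higher, with sums of 141.4, 121.0 and 124.4 FPKM in T2DM LGs, against 93.9, 94.9 and 102.7 FPKM in vehicle LGs. Of 3 pericyte markers 2 were higher, Notch3 and Rgs5, with sums of 22.1, 13.0 and 14.3 FPKM in T2DM LGs, against 4.81, 6.49 and 6.51 FPKM in vehicle LGs. Of 4 B cell markers 2 were higher. Of 8 acinar markers 0 were higher and 1 was lower, with 5 positive and 3 negative fold changes. In the sets of 7 macrophage and monocyte, 5 neutrophil and 5 mast cell markers, 1 each was higher, namely Cd14, Ltf and Kit. The other 6, 4 and 4 markers of these sets did not pass. None was higher among 7 fibroblast, 7 endothelial, 4 plasma cell and 3 T cell markers. The part of any of these cell types in the levels of the 6 genes, Timp2 and Timp3 included, was not tested. Summed TIMP transcripts were 50.5, 41.4 and 45.1 FPKM in T2DM LGs, against 21.4, 30.9 and 25.7 FPKM in vehicle LGs, and summed Mmp transcripts were 50.4, 49.7 and 58.5 FPKM in T2DM LGs, against 34.5, 56.8 and 51.4 FPKM in vehicle LGs. The ratio of summed TIMP to summed Mmp FPKM was 1.001, 0.833 and 0.770 in T2DM LGs, against 0.622, 0.543 and 0.499 in vehicle LGs. It did not overlap between the groups, and Timp2, Timp3 and Mmp3 make up most of these sums. As Timp2 and Timp3 were called higher on the same values, this ratio is no further evidence.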

How the data were processed

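Poly(A) RNA from LGs of 3 T2DM and 3 vehicle samples was sequenced after preparation with a stranded kit. Reads were trimmed with cutadapt and aligned to GRCm38 with HISAT2, and the authors deposited gene-level FPKM computed with StringTie and Ballgown. hg19 and GRCh37 also stand in the submitters' processing notes, although the gene IDs are of mouse. Of the 47 genes, 43 lie where GENCODE M21 places them on GRCm38, and Adam1a, Adamts5, Prss33 and Tmprss2 do not match it exactly. FPKM are relative to all mapped fragments of a library, so a fall of very abundant genes raises the others, and the depth per sample is not known.

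Groups and replicate numbers came from the sample titles. T2DM was compared with vehicle by limma 3.58.1 (R 4.3.3) with a mean-variance trend on log2(FPKM + 1), over the 12135 genes whose mean reached 0.5 FPKM in T2DM or vehicle LGs, with Benjamini-Hochberg adjustment. The test was checked on simulated data. Named genes were those past the adjusted p, the 2 most abundant and the one of smallest p in each family, those with 1 library of at least 1 FPKM over 5 times the next, and called genes of the pathway list. Others were named after their values were seen. Genes and lists were chosen with earlier results of these data known. Shared sequence was counted as 50-base windows of the longest GENCODE transcript that occur in transcripts of other genes. Promoters are from RefSeq. Alternatives were 2 filters, 2 pseudocounts, 2 scalings, an unmoderated linear model, limma with no trend, blocking on the replicate number, and leaving out each library once.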

Additional observations from a re-analysis of the deposited data

How the results depend on the processing

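The calls were the same 6 higher and 1 lower gene without a filter, with a minimum of 1 FPKM, with a pseudocount of 0.1 or 0.5 and with limma with no trend. Scaling by the median of ratios or to the upper quartile left 3 higher genes (Mmp15, St14 and Timp3), with 0 Prss, 1 Timp and 1 gene of Tmprss and St14 higher, and 7 or 8 of the other pathway genes higher. The replicate block gave 3 higher genes, likewise with 0 Prss, 1 Timp and 1 gene of Tmprss and St14, and 8 pathway genes. It called 551 of all genes higher. Whether libraries of the same number share more than a number is not known. Their deviations from the group means correlated at 0.03, 0.02 and 0.00, which cannot show whether they were handled together. The unmoderated linear model called 0 genes higher and 0 lower in all, hence 0 in the Mmp, Timp, Prss, Tmprss and St14, Klk1 and Klk1b and pathway groups, with 6 of the 44 genes higher and 3 lower at an unadjusted p under 0.05. With 1 library left out, 0 to 5 genes were higher and 1 to 2 lower, with 0 to 1 Mmp, 0 to 1 Prss, 0 to 2 Timp and 0 to 2 Tmprss and St14 genes higher, 0 to 1 Mmp lower and 0 to 10 pathway genes higher. Without vehicle replicate 3, 0 were higher, and higher calls over all genes fell to 25. With another library left out, they numbered 203 to 886. Klk1b11 was called lower in all of these fits but the unmoderated linear model. The cause of these losses was not tested.

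Genes with log2 fold changes near 0 changed sign under the median of ratios, where Adam15 was at -0.12, Furin at -0.077, Mmp3 at -0.16, Pcsk7 at -0.066, Plau at -0.040, Prss23 at -0.14 and Prss8 at -0.017. To the upper quartile they were at -0.11, -0.073, -0.16, -0.064, -0.037, -0.13 and -0.013. With 1 library left out, the range was -0.034 to 0.14 for Adam15, -0.32 to 0.03 for Adam9, -0.19 to 0.064 for Adamts10, -0.074 to 0.25 for Furin, -0.0011 to 0.40 for Mmp2, -0.23 to 0.16 for Mmp3, -0.030 to 0.21 for Pcsk7, -0.059 to 0.27 for Plau and -0.053 to 0.09 for Prss23. None of these passed the adjusted p. FPKM hold no read numbers, so the precision rests on 3 libraries per group.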
